A study of Mus musculus with 6 samples.

Results

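The vascular endothelial growth factor (VEGF) family was examined in whole mouse embryos at E10.5 (midgestation). Its 10 genes were listed by name (5 ligands, *Vegfa*, *Vegfb*, *Vegfc*, *Vegfd* and *Pgf*; 3 tyrosine kinase receptors, *Flt1*, *Kdr* and *Flt4*; and 2 coreceptors, *Nrp1* and *Nrp2*) and matched by symbol among the 55401 genes of the count table. The matching rule itself used no measured value. WT embryos carried the unmodified *Igf2* locus, and 5C embryos carried a tandem array of *Mir483* copies placed at that locus by cassette exchange in targeted ES cells. Each genotype had 3 poly(A)-selected libraries, each prepared from a pool of 2 embryos described as male. The WT embryos were littermates, and all embryos were on a C57BL/6J background. The 5C allele came from 1 construct that passed through the germline, so the comparison is of 1 allele with WT. No replicate was labelled as a separate litter, and p-values measure the spread between these pools.

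VEGF ligands are secreted dimers that bind receptors on endothelial cells. VEGF-A acts through KDR (VEGFR2), the main signalling receptor for vessel growth, while FLT1 (VEGFR1) binds VEGF-A, VEGF-B and placental growth factor tightly and, in its soluble form, holds VEGF-A back from KDR. VEGF-C and VEGF-D act through FLT4 (VEGFR3), which is expressed in early veins and later mainly in lymphatic vessels. At midgestation the embryo is building its first vascular network, and loss of a single *Vegfa* allele is known to be lethal in mice.

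The inserted gene gives rise to 2 mature microRNAs, shown here because their seeds (bases 2 to 8, in capitals) define which transcripts they could pair with. The sequences are from RefSeq for GRCm38.p6, on the minus strand of chromosome 7 at chr7:142654932-142654952 for the 3p arm and chr7:142654968-142654989 for the 5p arm.
miR-483-3p: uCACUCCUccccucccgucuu
miR-483-5p: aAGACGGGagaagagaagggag

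The 3′ UTR of the longest annotated coding transcript of each of the 10 genes was searched on the sense strand for the reverse complements of these seeds, AGGAGTG and CCCGTCT. *Flt4*, with a UTR of 1656 bases, was the 1 member with AGGAGTG, given here in capitals within the surrounding 30 bases of the plus strand (chr11:49651597-49651626, GRCm38). The same 7 letters occurred in 12.4% of the 13898 tested genes with an annotated 3′ UTR. CCCGTCT occurred in 0 members and in 3.44% of those genes. *Kdr* held the 6 letters CCGTCT, which pair with bases 2 to 7 of miR-483-5p, at chr5:75932965-75932993 on the minus strand, and these 6 letters occurred in 12.2% of the genes. A match of letters is a description and does not show pairing.
*Flt4* 3′ UTR: caaagtcacagaggAGGAGTGgaggagggg
*Kdr* 3′ UTR: agctatataccctaCCGTCTctctcatct

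Library totals ranged from 6357343 to 19151368 counts, and 3 counts corresponded to 0.157 to 0.472 CPM, the unit used throughout (read counts scaled to a common library size, adjusted for differences in RNA composition). *Mir483* itself had 11, 5 and 2 counts in WT and 85, 51 and 36 counts in 5C, so the libraries followed their labels. These counts come from longer transcripts that hold the hairpin, not from the mature microRNA. The libraries also differed within each genotype. The summed level of 14 yolk sac visceral endoderm markers was 7022 CPM in WT replicate 1, 296 and 588 CPM in the other WT libraries, and 225, 207 and 1420 CPM in 5C replicates 1 to 3. The Y-linked gene *Ddx3y* measured 0.944 CPM in WT replicate 2 and 0 counts in 5C replicate 2, against 41.6 to 55.9 CPM in the other 4 libraries, although all pools are described as male.

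All 10 VEGF genes passed the filter on low counts and were tested. Of the ligands, 4 had a higher and 1 a lower mean in 5C, and of the receptors and coreceptors 1 had a higher and 4 a lower mean. No member passed an adjusted p of 0.05 (edgeR quasi-likelihood test, Benjamini-Hochberg adjusted p from 0.781 to 0.987), and the share called among all 16784 genes tested was 0%. DESeq2 also called 0 members. At an unadjusted p under 0.05, *Vegfa* was higher and *Nrp2* was lower, that is 2 of 10, against 6.02% of all genes tested (2.55% higher and 3.47% lower). The 3 WT and 3 5C values did not overlap for *Vegfa*, *Pgf* and *Kdr*, that is 3 of 10, against 11.4% of all genes tested. The median log2 fold change of the 10 genes was -0.03, beside -0.0024 over all genes. With 10 genes, counts of 2 and 3 differ from these background shares by 1 or 2 genes.

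**Figure D1:**
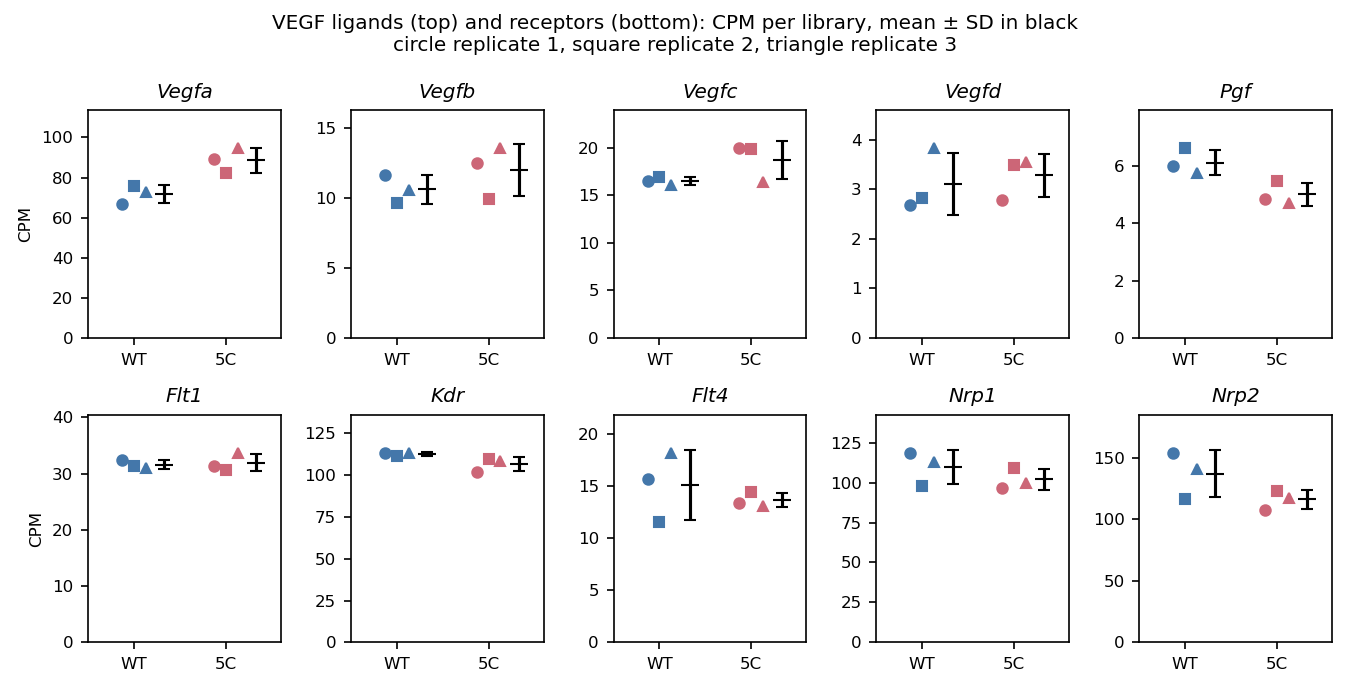
CPM of each VEGF gene in each library, on axes that start at 0, with WT in blue, 5C in red, the replicate number as the symbol, and the mean ± SD (n = 3) in black. The 5C values of *Vegfa* all lie above the WT values, those of *Pgf* and *Kdr* all lie below them, and *Nrp2* overlaps because WT replicate 2 lies among the 5C values.

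*Vegfa* encodes the ligand that drives KDR signalling. It lies at chr17:46016993-46032369 on the minus strand of GRCm38 (ENSMUSG00000023951). It measured 66.9, 75.9 and 72.6 CPM in WT replicates 1 to 3 and 89.3, 82.0 and 94.6 CPM in 5C replicates 1 to 3, based on 455 to 1474 counts per library. The lowest 5C library was above the highest WT library. The WT mean was 71.8 ± 4.56 CPM and the 5C mean 88.7 ± 6.31 CPM (SD, n = 3). The log2 fold change was 0.31 ± 0.081 (SE), which is 1.24-fold with a 95% confidence interval from 1.09 to 1.40. Its edgeR p ranked 51 of 16784, below 0.05 before adjustment, and the adjusted p was 0.781. The difference was therefore larger than the spread between pools in a test of this gene alone and did not hold after correction for all genes. Across the 18 ways of processing the counts the log2 fold change of *Vegfa* lay between 0.21 and 0.40. When no filter on low counts was used, its edgeR adjusted p was 0.0239 over the 33139 genes then tested. In that setting 416 genes had an adjusted p under 0.05, against 0 with the filter. Among the 416 were 13 of 14 yolk sac markers, although their summed level was far higher in WT replicate 1 than in the other WT libraries. The 0.0239 is therefore given as a dependence on the filter and not as a call. The standard error of *Vegfa* was 0.088 there, against 0.081 with the filter. Its adjusted p over all settings ranged from 0.0239 to 1. Without WT replicate 1 and 5C replicate 3, the libraries with the most yolk sac marker RNA in their genotypes, the value was 0.21 ± 0.094 (SE) and missed the unadjusted threshold, the 1 setting of 18 in which it did. Without both replicate 2 libraries it was 0.40.

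*Vegfb*, *Vegfc* and *Vegfd* also had higher means in 5C, none past the unadjusted threshold. *Vegfc* encodes the main lymphatic growth factor (chr8:54077606-54187096, plus strand). *Vegfc* measured 16.5, 16.9 and 16.1 CPM in the WT pools, against 19.9, 19.8 and 16.4 CPM in the 5C pools. The first 2 5C libraries were above all WT libraries, while 5C replicate 3 lay between the WT values. The log2 fold change was 0.18 ± 0.11 (SE) and missed the unadjusted threshold. Without 5C replicate 3 it was 0.27 ± 0.11 (SE), past the unadjusted threshold, with an edgeR adjusted p of 0.98. *Vegfb*, whose product binds FLT1 and neuropilin 1, lies at chr19:6982473-6987651 on the minus strand. *Vegfb* measured 11.6, 9.62 and 10.53 CPM in the WT pools, against 12.5, 9.90 and 13.5 CPM in the 5C pools, and the groups overlapped. Its log2 fold change was 0.17 ± 0.15 (SE). *Vegfd*, a second FLT4 ligand on the X chromosome (chrX:164373378-164402650, plus strand), was the lowest member, with 24 to 51 counts per library. *Vegfd* measured 2.68, 2.83 and 3.83 CPM in the WT pools, against 2.79, 3.50 and 3.56 CPM in the 5C pools. Its log2 fold change was 0.11, with an interval from -0.38 to 0.60 that leaves changes of either sign within the error.

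*Pgf*, encoding placental growth factor, a ligand of FLT1 and not of KDR, ran opposite to the other ligands. It lies at chr12:85166635-85177790 on the minus strand. *Pgf* measured 5.98, 6.61 and 5.74 CPM in the WT pools, against 4.85, 5.46 and 4.70 CPM in the 5C pools. Each 5C library was below each WT library, from 36 to 114 counts. The log2 fold change was -0.30 ± 0.16 (SE; 0.815-fold, 95% confidence interval 0.637 to 1.04) and missed the unadjusted threshold. The sign of *Pgf* was negative in all 17 alternatives, from -0.36 to -0.23, and it missed that threshold in each of the 18 settings. *Pgf* is abundant in trophoblast. Of the 14 trophoblast markers listed, 6 were tested and the summed level ranged from 12.4 to 17.3 CPM in WT and from 8.28 to 24.6 CPM in 5C. The syncytiotrophoblast gene *Synb* was at 0 in all 6 libraries. The part of trophoblast RNA in the *Pgf* values was not tested.

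**Figure D2:**
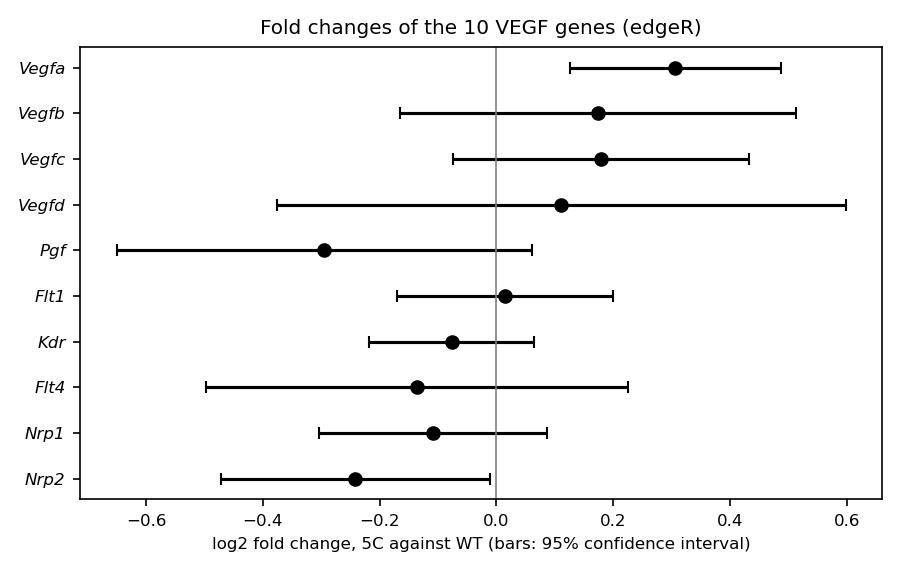
Log2 fold change of each VEGF gene, 5C against WT, from edgeR, with bars for the 95% confidence interval and a grey line at no change. The interval of *Vegfa* (0.13 to 0.49) lies above 0, that of *Nrp2* (-0.47 to -0.01) lies just below it, and the other 8 intervals cross it.

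*Kdr* and *Flt1* had the smallest fold changes of the family. *Kdr* (chr5:75932827-75978458, minus strand) measured 113, 111 and 113 CPM in the WT pools, against 102, 109.6 and 108 CPM in the 5C pools. The WT values lay close together, with a coefficient of variation of 1.03%, and all 3 5C values were below them. The difference was small, with a log2 fold change of -0.08, a standard error of 0.063, and a fold of 0.948 (95% confidence interval 0.86 to 1.05). Over all genes the common biological coefficient of variation was 13.6%, and 3 WT values are too few to establish a spread as low as 1.03%. The edgeR test, which moderates each gene's spread toward that of other genes, gave *Kdr* an adjusted p of 0.811. Folds of *Kdr* below 0.86 or above 1.05 lay outside this interval.

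*Flt1* (chr5:147561604-147726011, minus strand) measured 32.5, 31.4 and 31.0 CPM in the WT pools, against 31.5, 30.7 and 33.7 CPM in the 5C pools, and the groups overlapped. For *Flt1* the log2 fold change was 0.01 ± 0.083 (SE), and the fold lay between 0.888 and 1.15 at 95% confidence. Its sign depended on single libraries, being -0.0065 without WT replicate 3 and -0.03 without 5C replicate 3. Counts per gene do not separate the membrane-bound from the soluble *Flt1* transcript.

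*Flt4*, the member with the miR-483-3p seed match shown above (chr11:49609263-49652739, plus strand), measured 15.6, 11.5 and 18.2 CPM in the WT pools, against 13.4, 14.4 and 13.1 CPM in the 5C pools. WT replicate 2 was below every 5C library and WT replicates 1 and 3 were above them. The log2 fold change was -0.14 ± 0.16 (SE), and its interval from -0.50 to 0.23 includes no change. Without WT replicate 2 it was -0.30 ± 0.13 (SE), past the unadjusted threshold, with an edgeR adjusted p of 0.478. Tested genes with AGGAGTG in the 3′ UTR had a median log2 fold change of -0.0233, and those without it -0.0014. For CCCGTCT, of miR-483-5p, the medians were -0.0378 with and -0.0032 without it. For CCGTCT, which *Kdr* holds, they were -0.0319 and -0.0008. The part of transcript GC content in these medians was not tested.

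The neuropilins bind VEGF ligands alongside the kinase receptors and also bind class 3 semaphorins, which guide axons and neural crest cells. *Nrp2* (chr1:62703285-62818695, plus strand) measured 154, 117 and 141 CPM in the WT pools, against 108, 123 and 118 CPM in the 5C pools. WT replicates 1 and 3 were above all 5C libraries, and WT replicate 2 lay below 5C replicates 2 and 3. For *Nrp2* the log2 fold change was -0.24 ± 0.10 (SE; 0.845-fold, 95% confidence interval 0.721 to 0.992), with an edgeR adjusted p of 0.781. The unadjusted call depended on both libraries and processing. It was lost without WT replicate 1 (-0.14), WT replicate 3 (-0.23), 5C replicate 1 (-0.19) or 5C replicate 3 (-0.25), and was kept without either replicate 2 library. With all 6 libraries it was lost under library size alone (-0.23), the replicate block (-0.24), GC content offsets (-0.21) and both of the last together (-0.21). It held in 9 of 18 settings, and in all 18 the value was lower in 5C, from -0.39 to -0.14.

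*Nrp1* (chr8:128358604-128503363, plus strand), the neuropilin of arteries, measured 119, 98.0 and 113 CPM in the WT pools, against 96.8, 109 and 99.9 CPM in the 5C pools. The groups overlapped, again through the replicate 2 libraries. For *Nrp1* the log2 fold change was -0.11 ± 0.087 (SE) and missed the unadjusted threshold, which it passed without WT replicate 2 at -0.19 ± 0.077 (SE). *Flt4*, *Nrp1* and *Nrp2* had their lowest WT value in WT replicate 2 and their highest 5C value in 5C replicate 2, the libraries in which *Ddx3y* was at or near 0. *Vegfa* ran the other way, with its highest WT value in WT replicate 2 and its lowest 5C value in 5C replicate 2. The part of these libraries' makeup in the 4 genes was not tested.

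**Figure D3:**
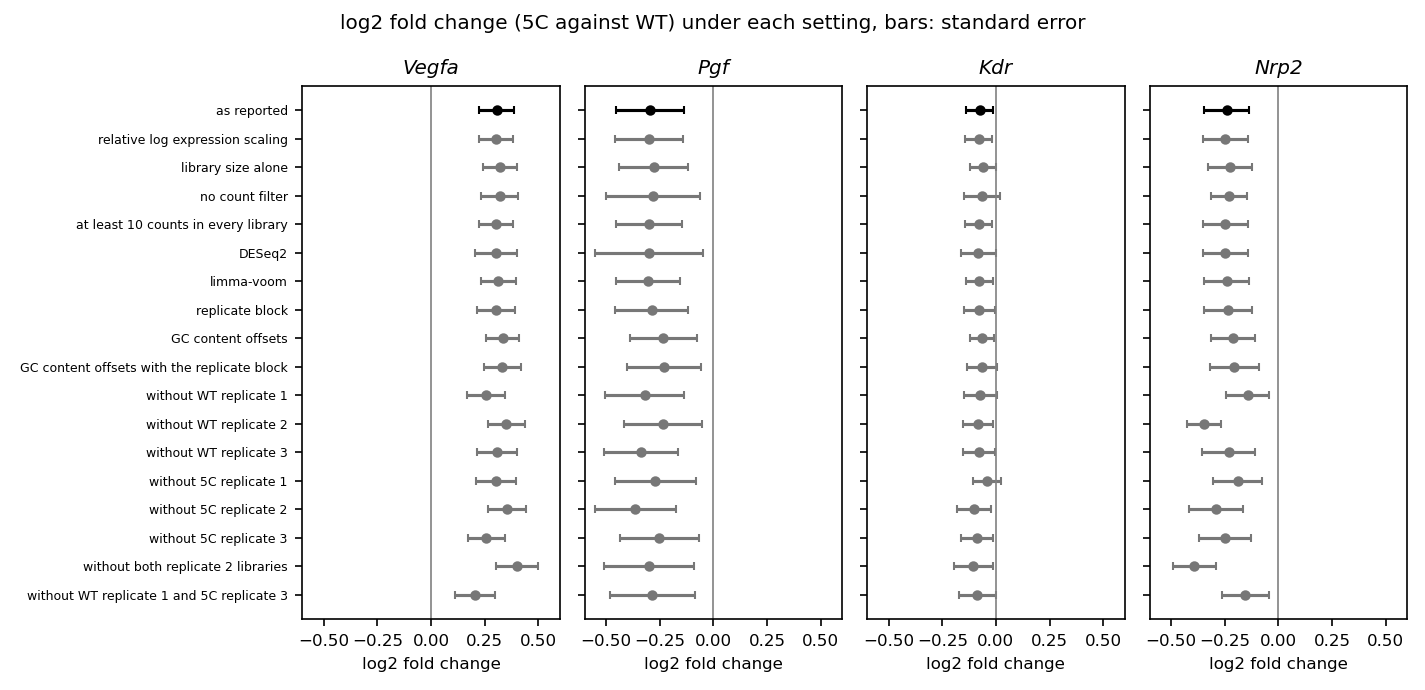
Log2 fold change of *Vegfa*, *Pgf*, *Kdr* and *Nrp2* (5C against WT, bars for the standard error) as reported, in black, and under each of 17 other ways of processing, in grey. *Vegfa* stays between 0.21 and 0.40 and *Pgf* between -0.36 and -0.23, while *Nrp2* moves from -0.14 without WT replicate 1 to -0.39 without both replicate 2 libraries.

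Levels between genes were compared as CPM per kilobase of annotated exon (CPM per kb), since longer genes collect more reads. In WT, *Vegfa* was the most abundant member at 16.8 ± 1.06 CPM per kb (SD, n = 3), above *Kdr* at 12.4 ± 0.129, *Nrp2* at 11.6 ± 1.62 and *Nrp1* at 11.2 ± 1.10. The values of *Kdr* and *Nrp2* overlapped between WT libraries, as did those of *Nrp2* and *Nrp1*. *Vegfc* and *Vegfb* followed at 6.74 ± 0.164 and 6.60 ± 0.634 CPM per kb and overlapped each other. *Flt1* was at 2.34 ± 0.058, *Pgf* at 2.10 ± 0.154, *Flt4* at 1.83 ± 0.41 and *Vegfd* at 1.29 ± 0.26 CPM per kb. Among these, *Flt1* had WT values above all those of *Pgf*, whereas *Pgf* overlapped *Flt4* and *Flt4* overlapped *Vegfd*. In 5C, *Vegfa* was again the highest, at 20.7 ± 1.47 CPM per kb, and *Nrp2*, at 9.82 ± 0.647, came after *Nrp1*, at 10.4 ± 0.667, with overlapping values. Summed exon length counts every annotated exon, so genes with many alternative exons appear lower on this scale.

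Since KDR and FLT1 compete for VEGF-A, their ratio was taken within each library. The log2 ratio of *Flt1* to *Kdr* CPM was -1.80, -1.82 and -1.87 in WT and -1.69, -1.83 and -1.68 in 5C. Both 5C replicates 1 and 3 had a higher ratio than any WT library and 5C replicate 2 did not. The difference was 0.09 (exact two-sided permutation test, p = 0.3), and the smallest p that 3 against 3 libraries allow is 0.1.

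*Kdr* was then set against 20 other endothelial markers, which include *Pecam1* and *Cdh5*, junction proteins of endothelial cells. Of these, 19 were tested, 13 had a higher and 6 a lower mean in 5C, and 0 passed an unadjusted edgeR p of 0.05. Their summed level was 527 to 544 CPM in WT and 544 to 549.9 CPM in 5C. The log2 ratio of *Kdr* to this sum was -2.26, -2.25 and -2.26 in WT and -2.43, -2.31 and -2.34 in 5C, so that each 5C library was below each WT library. The difference was -0.11 (exact two-sided permutation test, p = 0.1, the smallest that 3 against 3 libraries allow), so the design could not reach a p of 0.05. In whole embryos, fewer cells of a type and less RNA per cell cannot be told apart.

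**Figure D4:**
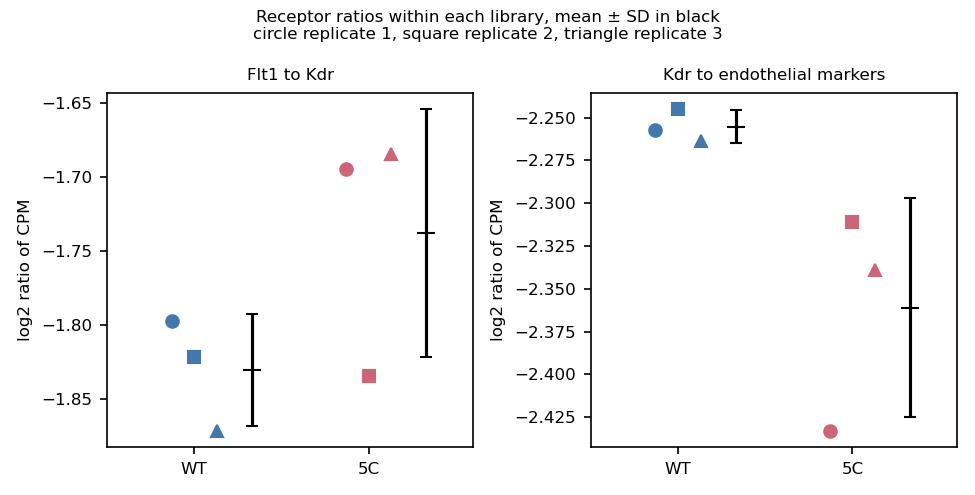
Log2 ratio of *Flt1* to *Kdr* (left) and of *Kdr* to the summed endothelial markers (right) in each library, with the replicate number as the symbol and the mean ± SD (n = 3) in black; the axes do not start at 0. The *Flt1* to *Kdr* ratios overlap between genotypes, whereas the 3 5C values of *Kdr* to endothelial markers, from -2.43 to -2.31, lie below the 3 WT values, from -2.26 to -2.25.

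The other genes of the pathway were read from 5 lists holding 76 genes, of which 74 were tested. By edgeR 0 passed an adjusted p of 0.05, as by DESeq2, and at an unadjusted p 6 were higher and 2 lower, against 2.55% and 3.47% of all genes tested. The median log2 fold change of the 74 was -0.0237, beside -0.0024 over all genes.

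VEGF-A transcription is raised by the hypoxia-inducible factors, whose stability is set by the EGLN prolyl hydroxylases and VHL. In the hypoxia list, 14 of 15 genes were tested. At an unadjusted p under 0.05, 3 were higher and 1 lower, against 2.55% and 3.47% of all genes tested. The values of 5 did not overlap between genotypes, against 11.4% of all genes tested. *Pdk1*, a mitochondrial kinase that inhibits pyruvate dehydrogenase and a known target of HIF-1, measured 105, 108 and 99.6 CPM in the WT pools, against 143, 121 and 119 CPM in the 5C pools. Its log2 fold change was 0.29 ± 0.085 (SE), with an edgeR adjusted p of 0.781. With no filter on low counts, the setting in which 416 genes passed, its edgeR adjusted p was 0.0268, which is likewise not read as a call. *Egln1*, the main oxygen-sensing hydroxylase, measured 89.3, 99.3 and 89.2 CPM in the WT pools, against 104, 102 and 114 CPM in the 5C pools, a log2 fold change of 0.20 ± 0.076 (SE). Every 5C library was above every WT library for both genes.

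*Bnip3*, a mitophagy receptor and HIF target, measured 17.1, 20.3 and 16.9 CPM in the WT pools, against 23.3, 20.7 and 22.1 CPM in the 5C pools, a log2 fold change of 0.28 ± 0.11 (SE). *Slc2a1*, the glucose transporter GLUT1 and also a HIF target, went the other way. It measured 251, 254 and 242 CPM in the WT pools, against 241, 189 and 208 CPM in the 5C pools, a log2 fold change of -0.23 ± 0.088 (SE). The fifth gene without overlap, *Ankrd37*, had a log2 fold change of 0.35 ± 0.16 (SE). Leaving out single libraries kept the unadjusted call of *Pdk1* in every case. That of *Egln1* was lost without WT replicate 1 (0.18), WT replicate 3 (0.17) or 5C replicate 3 (0.15), and that of *Bnip3* without WT replicate 1 (0.24), WT replicate 3 (0.24), 5C replicate 1 (0.24) or 5C replicate 3 (0.28). That of *Slc2a1* was lost without WT replicate 1 (-0.22), WT replicate 2 (-0.21), 5C replicate 2 (-0.16) or 5C replicate 3 (-0.21). *Hif1a* measured 301, 320 and 310.1 CPM in the WT pools, against 303, 348 and 377 CPM in the 5C pools, with overlap. *Bnip3*, *Ankrd37* and *Hif1a* were named after their values were seen. Of the 14 tested genes, 7 had a higher and 7 a lower mean in 5C, and the median log2 fold change was 0.07. The list holds regulators of the hypoxia-inducible factors as well as their targets, so this median does not describe the targets alone. Across the 18 settings *Egln3* lay between 0.06 and 0.35 and *Adm* between -0.27 and 0.94. Both were also named after their values were seen. The part of hypoxia in these values was not tested.

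**Figure D5:**
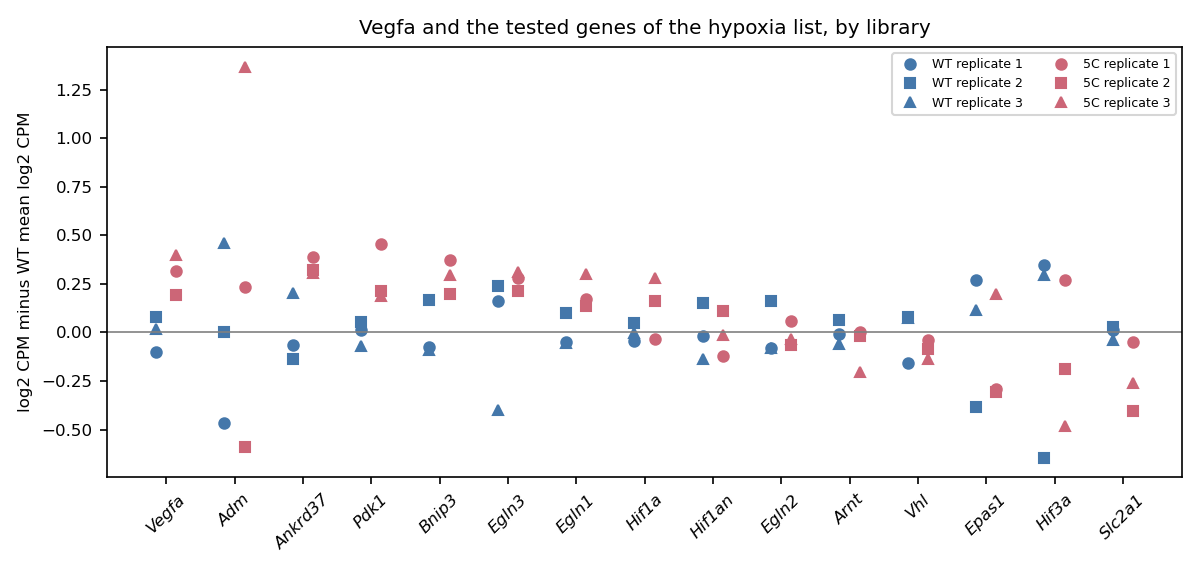
Log2 CPM of *Vegfa* and of the 14 tested hypoxia genes in each library, minus the mean of the 3 WT libraries, ordered by fold change after *Vegfa*. All 5C values of *Vegfa*, *Ankrd37*, *Pdk1*, *Bnip3* and *Egln1* are above the WT values, all those of *Slc2a1* are below them, and the other 9 genes overlap.

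The sequences upstream of *Vegfa* and *Bnip3* are shown as a window without and a window with the short core that HIF binds, ACGTG or GCGTG. *Bnip3* was chosen after its values were seen. Both cores were counted on both strands in RefSeq windows of 300 bases, from 250 bases before to 50 bases after an annotated start, and 19.6% of the 32851 windows held ACGTG, 32.4% held GCGTG and 43.8% held either. All matches described here began before the start, and 1 in *Pdk1*, beginning at base -2, ran across it. The 250 bases before the start are printed in the direction of transcription. Core letters are in capitals, also where they read on the other strand (CACGT or CACGC). All 10 VEGF genes matched a window. The upstream window of *Vegfa* (chr17:46032378-46032627, minus strand) held neither core, and a second annotated *Vegfa* start, inside the gene, held both. Among the 6 hypoxia genes described above, *Pdk1* held 2 GCGTG at 1 of 2 annotated starts, and *Egln1* and *Slc2a1* each held 1 ACGTG and 1 GCGTG. *Ankrd37* held 2 of each, its GCGTG as the 2 strands of 1 CACGCGTG. *Hif1a* held 3 ACGTG, 2 of them as the 2 strands of 1 CACGTG. Cores were held by *Slc2a1*, lower in 5C, and by genes higher in 5C, as by 43.8% of all windows. The part of these cores in the fold changes was not tested. The window of *Bnip3* (chr7:138909507-138909756, minus strand) held ACGTG 2 times, as the 2 strands of 1 CACGTG, and GCGTG 3 times. *Kdr*, *Nrp2* and *Vegfb* each held 2 GCGTG, *Flt1*, *Nrp1* and 1 of 2 annotated *Pgf* starts held 1, and *Flt4*, *Vegfc* and *Vegfd* held neither. Sites farther from the start were not searched.
*Vegfa* upstream: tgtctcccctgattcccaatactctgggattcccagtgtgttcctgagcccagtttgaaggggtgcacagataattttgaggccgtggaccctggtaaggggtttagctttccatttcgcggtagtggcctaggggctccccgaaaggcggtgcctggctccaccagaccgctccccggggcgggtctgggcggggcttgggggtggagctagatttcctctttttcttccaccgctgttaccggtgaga
*Bnip3* upstream: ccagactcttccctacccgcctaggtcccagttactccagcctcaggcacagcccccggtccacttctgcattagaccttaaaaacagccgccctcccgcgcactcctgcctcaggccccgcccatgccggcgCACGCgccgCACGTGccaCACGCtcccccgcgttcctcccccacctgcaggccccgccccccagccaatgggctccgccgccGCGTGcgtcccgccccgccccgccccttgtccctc

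Downstream of the receptors, 23 of 24 signal transducers were tested and 0 passed an unadjusted edgeR p of 0.05, with log2 fold changes from -0.55 to 0.19. The list includes *Plcg1*, a phospholipase that binds activated KDR, the kinase *Akt1*, and *Nos3*, the endothelial nitric oxide synthase. Among 8 genes of VEGF-C maturation and lymphatic identity, which include *Ccbe1*, *Adamts3* and *Prox1*, 0 passed and the median was -0.12.

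Of the 14 neuropilin partners, 1 was higher and 1 lower at an unadjusted p under 0.05, against 2.55% and 3.47% of all genes tested. *Plxna2*, a plexin that transmits semaphorin signals received by neuropilins, measured 115, 115 and 131 CPM in the WT pools, against 100.2, 100.2 and 94.0 CPM in the 5C pools. All 5C values were below all WT values. For *Plxna2* the log2 fold change was -0.29 ± 0.075 (SE), with an edgeR adjusted p of 0.781, and its unadjusted p stayed below 0.05 in all 18 settings. *Sema3c*, a semaphorin needed for outflow tract septation, measured 48.0, 47.1 and 49.3 CPM in the WT pools, against 50.2, 60.7 and 55.6 CPM in the 5C pools, a log2 fold change of 0.21 ± 0.086 (SE). The unadjusted call of *Sema3c* held without 5C replicate 1 and was lost without any other library, at 0.13 to 0.21.

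Among 15 angiopoietin, Tie and Notch genes of vessels, 2 were higher and 0 lower at an unadjusted p under 0.05. The shares over all genes tested were 2.55% and 3.47%. *Nrarp*, a Notch target that limits Notch signalling in sprouting vessels, measured 81.7, 80.1 and 74.5 CPM in the WT pools, against 96.5, 90.4 and 88.7 CPM in the 5C pools. Its log2 fold change was 0.22 ± 0.07 (SE), and the unadjusted call was lost without WT replicate 3 (0.18). *Esm1*, a marker of endothelial tip cells that VEGF-A is known to induce, measured 2.15, 2.06 and 2.07 CPM in the WT pools, against 2.91, 2.82 and 2.85 CPM in the 5C pools. These values rest on 41, 24 and 13 counts in WT replicates 1 to 3 and 48, 33 and 40 counts in 5C replicates 1 to 3. The groups did not overlap, but 3 values per genotype at such counts are too few to establish so small a spread. The log2 fold change of *Esm1* was 0.44 ± 0.19 (SE) by edgeR. By DESeq2 it was 0.44 ± 0.37 (SE) and missed the unadjusted threshold, and the call held in 5 of 18 settings. The unadjusted call of *Esm1* was lost when any 1 library was left out, at 0.43 to 0.47. *Dll4*, the Notch ligand of tip cells, measured 5.46 to 7.98 CPM in WT and 5.72 to 6.41 CPM in 5C, with overlap, and was named after its values were seen.

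The genes whose log2 CPM followed *Vegfa* most closely over the 6 libraries were *Ccdc106* (Pearson r = 0.993), *Acsl6* (r = 0.989) and *Tspyl1* (r = 0.986). Those closest to *Kdr* were *Lrrfip1* (r = 0.98), *Atf7ip2* (r = 0.974) and *Cdc14b* (r = 0.973). They are the extremes of 16774 genes over 6 points that share library depth and genotype, and are given as a description.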

How the data were processed

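RNA-seq was measured in 6 libraries, 3 WT and 3 5C, grouped by the sample titles. The authors made stranded mRNA libraries, sequenced single-end reads, aligned them with STAR to GRCm38 and deposited raw counts per Ensembl gene, with no normalization or filter. STAR drops reads that lie under exons of several genes on the counted strand. Which strand column was deposited is not given in the sources used here. *Nrp1* shares 80 exon bases with another gene on its strand, and the other members share 0.

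From these counts, genes were filtered by filterByExpr, libraries were brought to a common scale by TMM (trimmed means of log ratios), and genotypes were compared with the quasi-likelihood F-test in edgeR 4.0.16 (R 4.3.3). The p was two-sided, with Benjamini-Hochberg adjustment over 16784 genes. The standard error was the log2 fold change divided by the square root of F, and intervals used the moderated degrees of freedom. Libraries held 6357343 to 19151368 counts, and the floor of 3 counts covers counting error only. The 6 libraries differed beyond sampling noise in every pair. The common biological coefficient of variation was 13.6%. Symbols, positions, exon lengths and 3′ UTRs came from a GENCODE annotation of GRCm38, which held 55141 of 55401 identifiers. The script was checked on simulated counts.

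The members, gene lists, tests and alternatives were chosen with earlier results of these data known. Named genes were all 10 members, *Mir483*, at most 3 genes per other list with the smallest unadjusted p under 0.05, and the 3 genes most correlated with *Kdr* and with *Vegfa*. Others are named with that remark or as markers. Alternatives were 2 other scalings, 2 other count filters, DESeq2 1.42.0, limma-voom (limma 3.58.1), the replicate number as a block, offsets on transcript GC content with and without it, each library left out, and 2 pairs of libraries left out.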

Additional observations from a re-analysis of the deposited data

How the results depend on the processing

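*Vegfa*, *Vegfb*, *Vegfc*, *Pgf*, *Kdr*, *Flt4*, *Nrp1* and *Nrp2* kept their direction in all 17 alternatives. *Flt1* reversed without WT replicate 3 (-0.0065), without 5C replicate 3 (-0.0256) and without WT replicate 1 and 5C replicate 3 (-0.0048), and *Vegfd* reversed in the last of these (-0.0531). With single libraries left out, *Flt1* ranged from -0.0256 to 0.0368. With no count filter, 416 genes had an adjusted p under 0.05 and 2170 an unadjusted one, among them 1 VEGF gene (*Vegfa*, log2 fold change 0.3204) and 4 pathway genes by adjusted p (*Pdk1*, *Hey1*, *Dab2* and *Lyve1*). The last 3 of these each had 1 library far above the other 5. The cause was not tested. DESeq2 called 19 genes by adjusted p, 0 of them VEGF genes, and 5 pathway genes by unadjusted p. Without the 2 libraries highest in yolk sac markers, 2 genes passed the adjusted and 0 VEGF genes the unadjusted threshold. Leaving out single libraries gave 0 to 1 genes by adjusted p and 456 (without 5C replicate 2) to 1803 (without WT replicate 2) by unadjusted p, 1 to 4 VEGF genes and 4 to 11 pathway genes by unadjusted p. The VEGF genes so called were 1 under library size alone and under GC content offsets. Of genes at an unadjusted p, 57.7% were lower in 5C, against 42.4% under library size alone, 65% with no count filter and 77.9% without both replicate 2 libraries.

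Replicate numbers did not pair the libraries: same-number deviations correlated at -0.174, 0.202 and -0.166. With the replicate block, 1 VEGF gene and 5 pathway genes had an unadjusted p under 0.05, and 782 genes in all. The block with GC content offsets gave 1, 5 and 548. Across genes, log2 fold change and transcript GC content were negatively related (Spearman rho = -0.312 over 16770 genes, which are not independent replicates). At 24 to 51 counts, *Vegfd* was the member most limited by depth.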

Other observations

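*Hey1*, a Notch effector of arterial endothelium and other tissues, measured 203 CPM in WT replicate 3, against 30.1 to 41.8 CPM in the other 5 libraries. Its log2 fold change was 0.21 without WT replicate 3 and -1.15 with it. *Lyve1*, a marker of lymphatic endothelium and of some macrophages, measured 9.29 CPM in WT replicate 1 and 1.37 to 2.99 CPM elsewhere. *Dab2*, an endocytic adaptor that is also expressed in visceral endoderm, measured 103 CPM in WT replicate 1 and 26.8 to 42.6 CPM elsewhere. These 3 genes were named after their values were seen.

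Of 14 yolk sac markers, 13 were tested and all had a lower mean in 5C, a direction that depended on which libraries were kept. Without WT replicate 1, 12 were tested, 11 had a higher and 1 a lower mean in 5C, and 0 passed the unadjusted edgeR threshold of 0.05. Without 5C replicate 3, all 12 tested were lower and 12 passed. Without both of these libraries, all 12 tested were lower and 11 passed. With all 6 libraries, *Lrp2* and *Amn* passed that threshold, as did 3.47% of all genes tested on the lower side. Without WT replicate 1, *Lrp2* moved from -0.92 to -0.21 and lost the call, and *Amn* did not pass the count filter. Both calls were also lost without 5C replicate 1 or 5C replicate 2.

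Of 14 trophoblast markers, 6 were tested, and 4 had a higher and 2 a lower mean in 5C. The tissue that gave these transcripts in whole embryos was not tested. *Hand1* was lower at that threshold (3.47% of all genes tested), with a log2 fold change of -0.47. The call held in 9 of 18 settings and was lost without WT replicate 1 (-0.30), WT replicate 3 (-0.49), 5C replicate 1 (-0.40) or 5C replicate 2 (-0.42). Of 10 decidual and uterine natural killer markers, 6 were tested and *Gzmg*, *Gzmc* and *Gzmf* were higher at that threshold (2.24, 2.03 and 1.63), with levels from 0.105 to 6.12 CPM. Over all genes tested, 2.55% were higher at that threshold. All 3 calls were lost without WT replicate 1 (1.71, 1.24 and 1.01) and without 5C replicate 3 (1.32, 1.30 and 0.80), and that of *Gzmf* also without WT replicate 3 (1.77) or 5C replicate 1 (1.78). Without WT replicate 1 and 5C replicate 3 together, the values of *Gzmg*, *Gzmc* and *Gzmf* were 0.80, 0.52 and 0.18. With all libraries and the count filter, the edgeR adjusted p of the 6 genes was 0.781. With no count filter, the edgeR adjusted p was 5.93e-24 for *Lrp2*, 2.75e-12 for *Amn* and 0.689 for *Hand1*. It was 2.64e-08 for *Gzmg*, 6.85e-06 for *Gzmc* and 0.000134 for *Gzmf*. In that setting 13 of 14 tested yolk sac markers and 6 of 10 decidual markers had an adjusted p under 0.05. Of 13 trophoblast markers then tested, 0 did.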
